A study of Mus musculus with 17 samples.

Results

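The 9 genes described here are products of red blood cells and their precursors, measured in RNA of mouse B cells. They are the carbonic anhydrase genes Car1 and Car2, the water channel gene Aqp1, the claudin gene Cldn13, the blood group gene Rhd, the haem synthesis gene Alas2, the anion exchanger gene Slc4a1 and the adult alpha-globin genes Hba-a1 and Hba-a2. They are a list of symbols selected on their measured TPM in earlier work on these libraries, where red-cell genes differed between double mutants and Atm mutants, so values and calls in that contrast are a description and support nothing. All 9 were found among the 18554 gene symbols of the expression table, and all 9 were among the 9898 genes tested, which had at least 1 TPM in at least 2 libraries.

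Poly(A) RNA of B cells from C57BL/6 mice, called old in the sample titles, was sequenced in 17 libraries of 5 genotype groups. DM-CLL (n = 2, replicates 4 and 5) carries the Sf3b1 and Atm lesions together and is labelled as chronic lymphocytic leukaemia, DM (n = 3, replicates 1, 3 and 6) carries both lesions, Sf3b1 MT (n = 3) carries the Sf3b1 mutation, Atm MT (n = 6) carries the Atm deletion, and WT (n = 3) carries neither. The series title calls the lesions B cell-restricted, and the driver of that restriction, the alleles, the ages, the tissue and the way B cells were purified are not given in the sources used here. The labels do not say whether replicates came from separate mice, so p-values measure only the spread between these libraries. Levels are TPM, which are scaled by transcript length and by the library's total. Differences are log2 ratios of TPM + 1, which understate the change of genes near 0, and a gene was called when limma's Benjamini-Hochberg adjusted p was below 0.05.

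As background, red-cell precursors fill themselves with haemoglobin, which is built from globin chains and haem, and they mature in bone marrow and, in mice, also in the spleen. Early precursors switch on transcription factors such as GATA1 and KLF1, then membrane proteins and carbonic anhydrases, and the last nucleated stages and reticulocytes are dominated by globin transcripts. B cells belong to another branch of blood formation, the lymphoid one.

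The B-cell label was checked against 10 B-cell markers, whose summed level was 3594 to 3975 TPM in DM-CLL, 2298 to 3322 TPM in DM, 4202 to 5358 TPM in Sf3b1 MT, 3288 to 4728 TPM in Atm MT and 4041 to 5176 TPM in WT. Libraries also stood apart in other cell-type markers. In Atm MT replicates 1 to 4, 10 of 11 macrophage markers were above all other 13 libraries. The remaining one, Lyz2, was below them, at 43.7 to 89.9 TPM against 98.4 to 1005 TPM. In the same Atm MT libraries 5 of 7 platelet markers were below the other 13, and Kit was listed at 0. In DM-CLL replicate 4, all 7 T-cell markers were the highest of the 17 libraries, with a sum of 208 TPM against 11.6 to 38.0 TPM in the others. The mean level of the targeted gene Sf3b1 was 139 ± 1.83 TPM in DM-CLL, 57.4 ± 17.1 TPM in DM, 69.9 ± 19.3 TPM in Sf3b1 MT, 141 ± 31.1 TPM in Atm MT and 105 ± 8.51 TPM in WT, and that of Atm was 8.49 ± 1.004 TPM in DM-CLL, 3.41 ± 0.789 TPM in DM, 5.26 ± 1.94 TPM in Sf3b1 MT, 7.50 ± 4.23 TPM in Atm MT and 7.64 ± 1.20 TPM in WT (SD). Every DM-CLL library was thus above every WT library for Sf3b1, and every DM and Sf3b1 MT library was below. The level of a mutated Sf3b1 does not show the mutation. Which part of Atm was deleted is not given in the labels, so its gene-level value does not check them.

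The carbonic anhydrases hydrate carbon dioxide, and Car1 is a product of red cells while Car2 is also made elsewhere. Car1 (chr3:14766216-14808368, build GRCm38) measured 204 and 8.95 TPM in DM-CLL, 54.8, 293 and 46.9 TPM in DM, 3.50, 47.8 and 29.3 TPM in Sf3b1 MT, 0.31 to 9.31 TPM with a median of 2.82 TPM in the 6 Atm MT libraries, and 18.9, 54.8 and 9.05 TPM in WT. Car2 (chr3:14886273-14900770), on the same chromosome, measured 207 and 5.64 TPM in DM-CLL, 73.2, 300 and 44.6 TPM in DM, 8.87, 97.4 and 51.8 TPM in Sf3b1 MT, 1.30 to 25.2 TPM with a median of 7.52 TPM in Atm MT, and 22.3, 54.0 and 12.2 TPM in WT. For both genes DM replicate 3 was the highest of the 17 libraries and Atm MT replicate 1 the lowest, every DM library was above every Atm MT library, and the ranges of DM and WT overlapped. Within a group the values spread widely: Car1 in DM-CLL replicate 4 was 22.7-fold that in replicate 5, and in Sf3b1 MT replicate 2 it was 13.7-fold that in replicate 1. In such bulk libraries fewer cells of a type and less RNA per cell cannot be told apart.

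The next genes encode proteins of the red-cell membrane. Aqp1 (chr6:55336432-55348555), the main water channel of red cells, measured 103 and 2.57 TPM in DM-CLL, 43.7, 179 and 22.6 TPM in DM, 3.03, 69.6 and 34.6 TPM in Sf3b1 MT, 0.25 to 4.37 TPM with a median of 0.94 TPM in Atm MT, and 8.60, 26.3 and 5.44 TPM in WT. Every Atm MT library was below every library of DM and of WT, which no other member showed against WT. Rhd (chr4:134864536-134896172), a Rhesus blood group protein, measured 65.8 and 0.78 TPM in DM-CLL, 17.1, 63.2 and 7.82 TPM in DM, 1.06, 23.9 and 11.8 TPM in Sf3b1 MT, 0.05 to 2.04 TPM with a median of 0.42 TPM in Atm MT, and 4.08, 10.5 and 1.32 TPM in WT. Its DM and WT ranges overlapped, as did those of Atm MT and WT. Cldn13 (chr5:134914249-134915526), a claudin made by red-cell precursors of mice, measured 46.8 and 0.51 TPM in DM-CLL, 17.1, 72.0 and 11.2 TPM in DM, 1.43, 32.5 and 11.9 TPM in Sf3b1 MT, 0.00 to 2.44 TPM with a median of 0.44 TPM in Atm MT, and 3.60, 11.2 and 1.48 TPM in WT. Atm MT replicate 1, where Cldn13 was listed at 0, was the lowest library for Aqp1 and Rhd as well. Slc4a1 (chr11:102348824-102366203), the band 3 chloride and bicarbonate exchanger, measured 151 and 0.54 TPM in DM-CLL, 22.4, 61.3 and 6.80 TPM in DM, 1.35, 32.4 and 22.8 TPM in Sf3b1 MT, 0.07 to 6.49 TPM with a median of 1.04 TPM in Atm MT, and 2.96, 9.11 and 1.15 TPM in WT. Its highest library was DM-CLL replicate 4 rather than DM replicate 3, and its lowest DM library, at 6.80 TPM, was just above the highest Atm MT library, at 6.49 TPM.

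**Figure D1:**
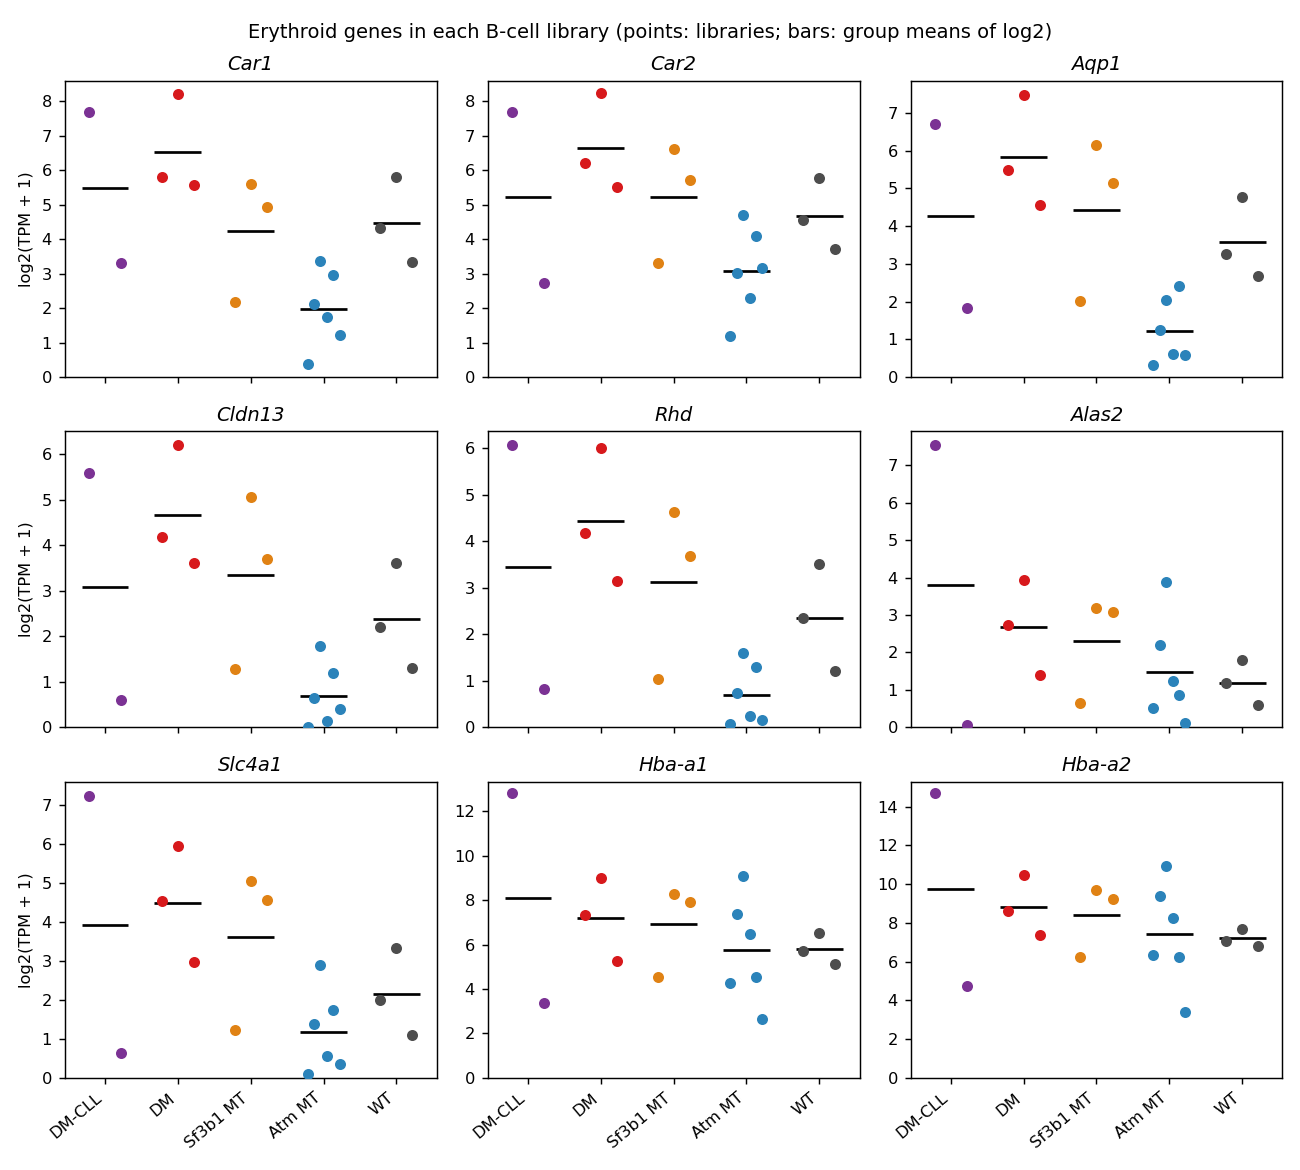
Level of each of the 9 genes in every library, on a log2(TPM + 1) axis, with 1 point per library, black bars for the group means of log2 and groups from DM-CLL to WT. DM-CLL replicates 4 and 5 lie far apart for every gene, and the Atm MT points of Car1, Aqp1, Rhd and Cldn13 lie below those of DM.

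Alas2 (chrX:150547375-150570638) encodes the first and rate-limiting enzyme of haem synthesis in red-cell precursors. It measured 184 and 0.04 TPM in DM-CLL, 5.70, 14.2 and 1.64 TPM in DM, 0.58, 8.12 and 7.49 TPM in Sf3b1 MT, 0.09 to 13.8 TPM with a median of 1.09 TPM in Atm MT, and 1.27, 2.45 and 0.52 TPM in WT. DM-CLL held both the highest and the lowest of the 17 values, and Atm MT replicate 3 at 13.8 TPM was close to the highest DM library at 14.2 TPM.

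Hba-a1 (chr11:32283511-32284465) and Hba-a2 (chr11:32296489-32297298) encode the adult alpha-globin chain of haemoglobin. Their coding sequences of 429 bases differ at 1 base and their proteins of 142 residues at 0, so the split of reads between the copies is uncertain and their sum is used below. Hba-a2 measured 27113 and 25.8 TPM in DM-CLL, 392, 1401 and 162 TPM in DM, 73.2, 842 and 596 TPM in Sf3b1 MT, 9.58 to 1959 TPM with a median of 189.6 TPM in Atm MT, and 134, 205 and 112 TPM in WT. Hba-a1 measured 7274 and 9.41 TPM in DM-CLL, 158, 504 and 37.1 TPM in DM, 22.2, 313 and 239 TPM in Sf3b1 MT, 5.18 to 545 TPM with a median of 55.3 TPM in Atm MT, and 51.8, 91.8 and 33.3 TPM in WT. The listed level of Hba-a2 was 1.85 to 4.37 times that of Hba-a1 in all libraries. All groups overlapped for both genes, and Atm MT replicate 3 was above every DM and WT library. The summed members in DM-CLL replicate 4 reached 35348 TPM, which is 3.53% of the full TPM scale and 5.92% of what the table lists. The other haemoglobin chains of adult mice, the beta-globins, were looked for by symbol and were not in the table, so they have no value here.

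The promoters of 4 members are shown because the patterns described next set Alas2 beside Hba-a2, and Aqp1 beside Rhd. The sequences are the 250 bases before the start given by RefSeq on build GRCm38.p6, on the plus strand. They lie at chr6:55336049-55336298 for Aqp1, chr4:134864286-134864535 for Rhd, chrX:150547167-150547416 for Alas2 and chr11:32296242-32296491 for Hba-a2. Of the 9 members, 5 had an entry. Capitals mark letters known to be bound by GATA factors (GATA with A or T before it and A or G after it) and by KLF1-type factors (CCNCNCCC, where N is any base), on either strand.
Aqp1: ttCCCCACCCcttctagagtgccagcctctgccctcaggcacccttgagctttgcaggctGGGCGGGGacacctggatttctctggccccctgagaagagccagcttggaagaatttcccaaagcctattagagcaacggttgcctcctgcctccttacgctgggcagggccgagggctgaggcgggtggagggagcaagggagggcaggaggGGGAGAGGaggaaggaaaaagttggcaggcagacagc
Rhd: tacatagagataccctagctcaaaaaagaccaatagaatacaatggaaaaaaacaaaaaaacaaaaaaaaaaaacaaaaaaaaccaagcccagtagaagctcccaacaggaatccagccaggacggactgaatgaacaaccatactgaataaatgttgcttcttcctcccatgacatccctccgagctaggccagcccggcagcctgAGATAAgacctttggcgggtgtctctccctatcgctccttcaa
Alas2: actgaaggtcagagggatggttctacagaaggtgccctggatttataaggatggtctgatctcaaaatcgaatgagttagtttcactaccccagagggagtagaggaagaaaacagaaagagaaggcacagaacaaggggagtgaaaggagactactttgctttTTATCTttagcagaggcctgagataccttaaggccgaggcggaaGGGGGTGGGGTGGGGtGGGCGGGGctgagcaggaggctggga
Hba-a2: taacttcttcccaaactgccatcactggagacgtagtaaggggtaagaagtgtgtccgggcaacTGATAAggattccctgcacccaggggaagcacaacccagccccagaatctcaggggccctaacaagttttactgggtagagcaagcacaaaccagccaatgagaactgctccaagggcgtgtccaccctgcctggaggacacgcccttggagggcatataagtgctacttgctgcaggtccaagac
GATA letters occurred 1 time each in Rhd, Alas2 and Hba-a2 and 0 times in Aqp1, and 26.5% of 32851 promoters of this length hold them. CCNCNCCC occurred 4 times in Alas2, with overlaps, 3 times in Aqp1 and 0 times in Rhd and Hba-a2, against 45.9% of all promoters holding it. Alas2 was the 1 member of the 5 to hold both motifs, which 8.19% of all promoters do. The Hba-a1 window shares 247 bases with that of Hba-a2, with 0 mismatches and an offset of 3 bases. These are matches of letters, and a window without a match says nothing of a factor.

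Across the libraries the members fell into 2 patterns, a description made after their values were seen. Car1, Car2, Aqp1, Cldn13 and Rhd followed each other, and so did Alas2, Hba-a1 and Hba-a2, while Slc4a1 lay between. Pearson's r of log2 levels over the 17 libraries was 0.96 to 0.99 within each set. Between the sets it was 0.63 to 0.78, so they also varied together. Slc4a1 had r of 0.92 to 0.97 with the first set and 0.81 to 0.88 with the second. The ratio of the alpha-globin sum to Car1 plus Car2 separated the libraries. It was 83.8 in DM-CLL replicate 4 and 2.41 in replicate 5, 4.29, 3.21 and 2.18 in DM, 7.71, 7.95 and 10.3 in Sf3b1 MT, 61.0, 81.5, 72.5 and 62.1 in Atm MT replicates 1 to 4 and 4.26 and 1.58 in Atm MT replicates 5 and 6, and 4.53, 2.73 and 6.83 in WT. The 5 libraries above 60 thus lay apart from the other 12, which spanned 1.58 to 10.3. The ratio of alpha-globin to Aqp1 gave the same 5 libraries, with 334 in DM-CLL replicate 4, 393 to 797 in Atm MT replicates 1 to 4 and 8.83 to 31.5 in the rest. Alas2 over Aqp1 did so too, with 1.78 in DM-CLL replicate 4, 1.72 to 4.39 in Atm MT replicates 1 to 4 and 0.02 to 0.22 in the rest. Alpha-globin over Alas2 did not separate them: it was 96.4 to 285 in 16 libraries and 881 in DM-CLL replicate 5, where Alas2 was at 0.04 TPM. Alpha-globin made up 97.3% to 97.9% of the members' summed level in those 5 libraries and 58.1% to 83.1% in the other 12.

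**Figure D2:**
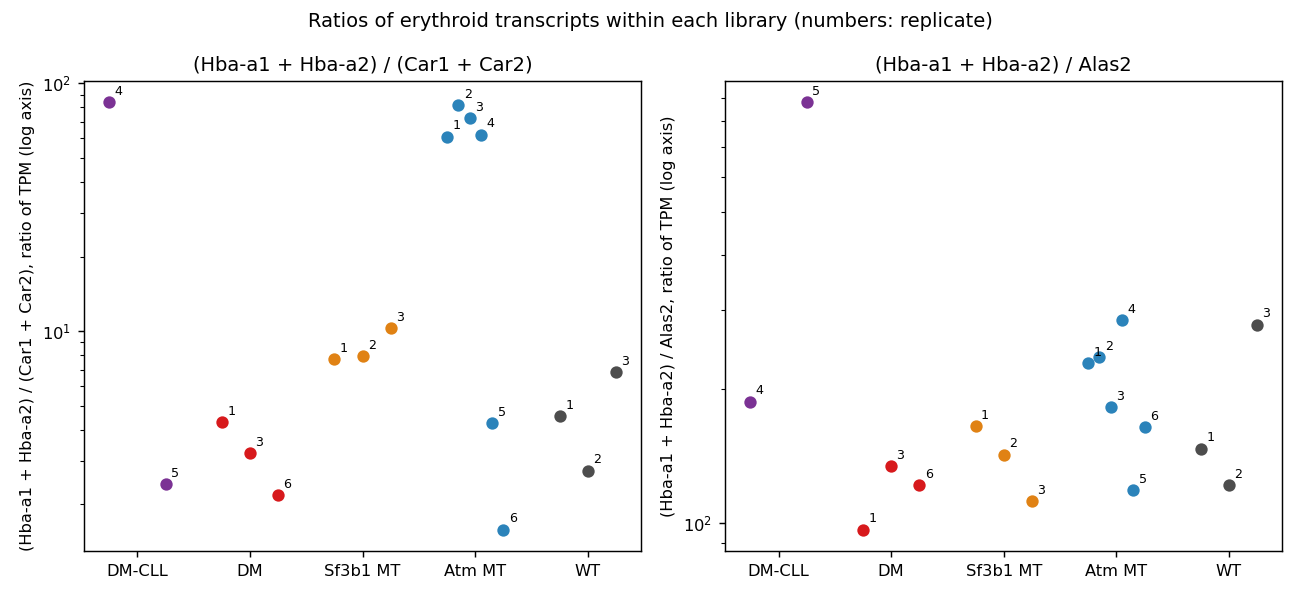
Ratios between members in every library, on log axes, with 1 point per library and groups from DM-CLL to WT. Alpha-globin over Car1 plus Car2 lies above 60 in Atm MT replicates 1 to 4 and DM-CLL replicate 4 and at 10.3 or below in the other 12 libraries.

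Those 5 libraries had the lowest sums of progenitor markers and were unlike in other markers. Progenitor markers summed to 1.97 to 5.73 TPM in Atm MT replicates 1 to 4 and 6.08 TPM in DM-CLL replicate 4. The remaining libraries were higher, from 8.6 TPM in WT replicate 1 to 20.45 TPM in DM replicate 6. Flt3, at 1.66 to 18.4 TPM over all libraries, was the only progenitor marker above 1.37 TPM, so the sums mostly follow this gene. Of the 7 progenitor markers 2 were highest in DM-CLL replicate 4. In Atm MT replicates 1 to 4 only 1 was below all other 13 libraries. C1qa, a complement gene of macrophages, was at 8.01 TPM in DM-CLL replicate 4, at 120 to 241 TPM in Atm MT replicates 1 to 4, and at no more than 35.9 TPM in the remaining libraries. Cd3e, a T-cell receptor subunit, was at 11.9 TPM in DM-CLL replicate 4 and at 0.09 to 1.51 TPM in the other 16 libraries. Among the 12 neutrophil markers 4 were highest in DM-CLL replicate 4. The labels name no batch, and the part of progenitor, macrophage, T-cell or neutrophil RNA in the globin ratio was not tested.

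**Figure D3:**
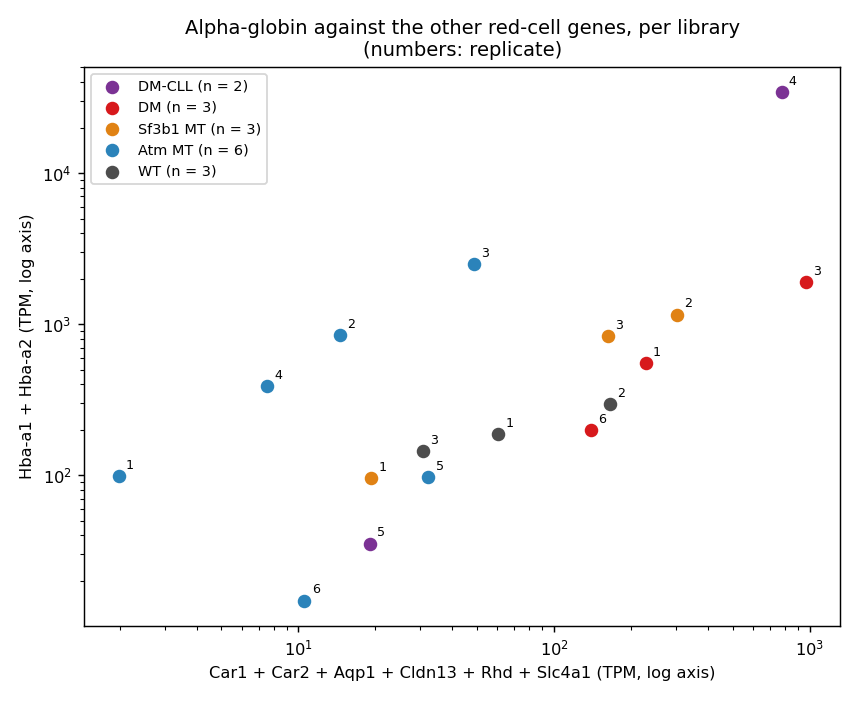
Alpha-globin sum against the sum of Car1, Car2, Aqp1, Cldn13, Rhd and Slc4a1, both in TPM on log axes, with 1 point per library and colours for the groups. Atm MT replicates 1 to 4 and DM-CLL replicate 4 lie above the band formed by the other 12 libraries, the Atm MT ones with alpha-globin sums of 98.1 to 2504 TPM at sums of 1.98 to 48.7 TPM for the 6 genes.

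Of 9131 other tested genes with a mean of at least 1 TPM, the 10 whose log2 level was most like the members' mean over the 17 libraries included Rhag, Tal1, Klf1, Hemgn, Trim10, Kel, Pdzk1ip1 and Gata1. Rhag encodes a partner of Rhesus proteins, Kel a blood group protein, and Tal1, Klf1 and Gata1 transcription factors of red-cell precursors. For these 8 genes Pearson's r was 0.96 to 0.97 and Spearman's rho 0.91 to 0.98, and r was 0.92 to 0.97 without DM-CLL replicate 4 and DM replicate 3, the libraries farthest from the median. These correlations are a description over libraries that share 1 table and its scaling. Pdzk1ip1 was the 1 of the 8 outside the erythroid lists used here.

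**Figure D4:**
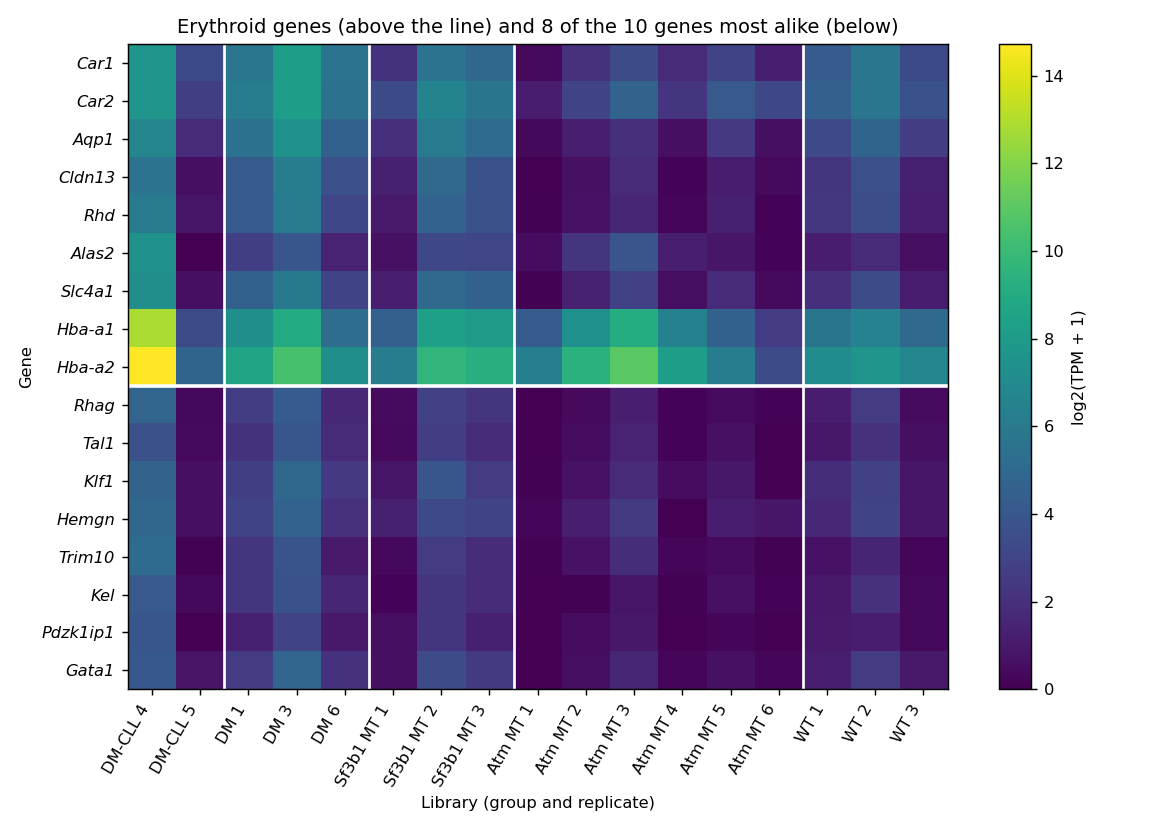
Heat map of log2(TPM + 1) for the 9 genes (above the white line) and 8 of the 10 genes most like them (below it) in the 17 libraries (columns, from DM-CLL to WT). DM-CLL replicate 4 and DM replicate 3, with mean levels of the 9 genes of 8.45 and 7.27, are the brightest columns.

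In DM against Atm MT, the contrast from which the members come, log2 ratios were 4.64 ± 0.81 for Aqp1, 4.57 ± 0.81 for Car1, 3.96 ± 0.73 for Cldn13, 3.76 ± 0.73 for Rhd, 3.57 ± 0.81 for Car2 and 3.32 ± 0.84 for Slc4a1 (± SE). Those of Hba-a1, Hba-a2 and Alas2 were 1.45 ± 1.20, 1.38 ± 1.25 and 1.22 ± 0.76. The first 6 were called higher and had groups that did not overlap, and of all tested genes 1.54% were called higher and 2.21% did not overlap upward. Nothing is read from these counts, since the contrast chose the members. The median over the members was 3.57, against -0.21 over all tested genes. The count was 0 without Atm MT replicate 4, DM replicate 1 or DM replicate 3, when 18, 7 and 9 of all genes were called. Without Atm MT replicates 1 to 4, a choice made once the values were known, it was also 0, with 27 of all genes called and a members' median of 3.71, and the ratios of Hba-a1, Hba-a2 and Alas2 were then 3.60, 3.98 and 2.20. Platelet markers summed to 13.2 to 15.9 TPM in DM, against 1.35 to 4.27 TPM in Atm MT replicates 1 to 4 and 9.47 to 10.7 TPM in replicates 5 and 6, natural killer markers summed to 25.5 to 47.0 TPM in DM and 2.54 to 22.9 TPM in Atm MT, and their part in the result was not tested.

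**Figure D5:**
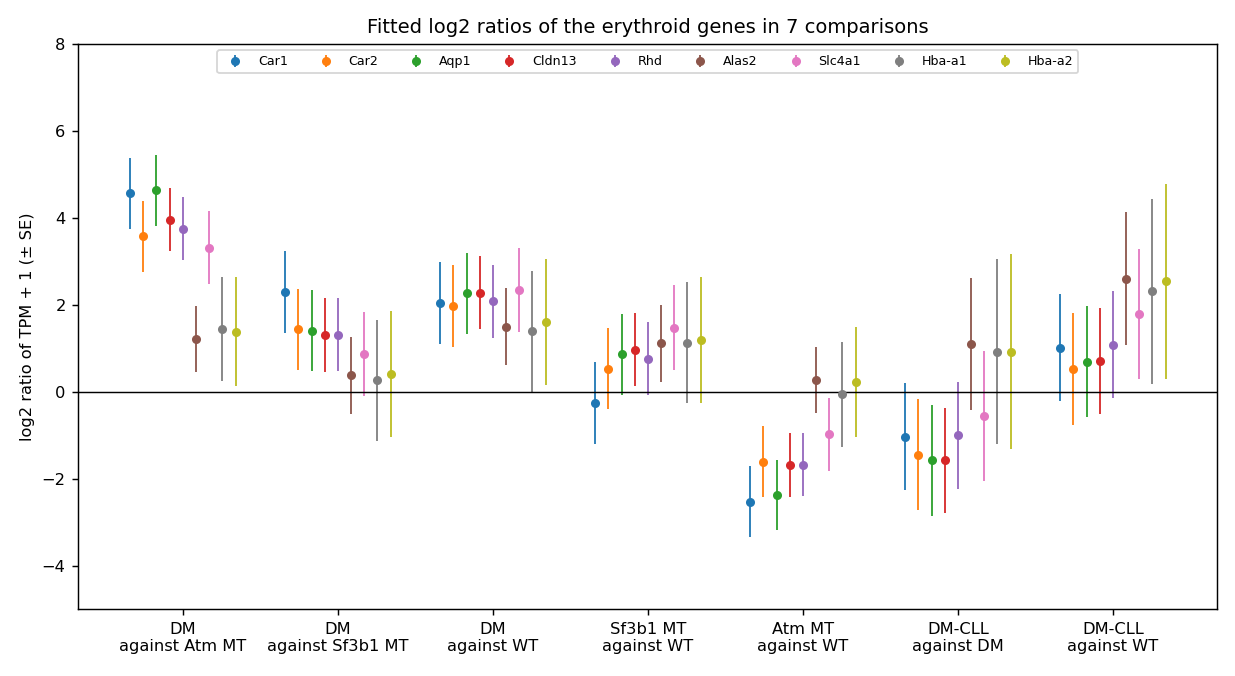
Log2 ratio of each of the 9 genes in each of the 7 comparisons, with bars of 1 SE and each comparison named by its 2 groups. Ratios in DM against Atm MT run from 1.22 to 4.64, all 9 in DM against WT lie above 0, and the bars of the DM-CLL comparisons are the widest.

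Other red-cell genes were taken from lists by function: 66 genes other than the members, of which 53 were in the table and 49 were tested. In DM against Atm MT 19 of the 49 were called higher and 1 lower (median log2 ratio 0.79), where 1.54% and 4.52% of all tested genes were, and the same contrast chose the members, so these counts are a description too. Without Atm MT replicate 4, DM replicate 1 or DM replicate 3, and without Atm MT replicates 1 to 4, 0 of them were called. By function, 9 of 12 membrane and skeleton genes, 5 of 10 transcription factors and receptors, 2 of 12 haem and iron genes, 1 of 6 enzymes and 2 of 9 late maturation genes were higher. Rhag measured 5.27, 18.4 and 2.08 TPM in DM, against 0.00 to 1.32 TPM in Atm MT (log2 ratio 2.46 ± 0.59). Klf1, a transcription factor of globin genes, measured 5.68, 28.8 and 4.43 TPM in DM, against 0.04 to 2.43 TPM in Atm MT (2.69 ± 0.64). Tspan33, a tetraspanin of red-cell precursors, measured 8.61, 19.1 and 3.87 TPM in DM, against 0.00 to 2.52 TPM in Atm MT (2.58 ± 0.50). For these 3 genes every DM library was above every Atm MT library. The lower gene was Cat, which encodes catalase and is made in most cells (-0.44 ± 0.12). The embryonic globins, 3 in the table, were listed below 1 TPM in every library and 0 were tested.

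In DM against WT all 9 members had log2 ratios above 0, from 1.39 for Hba-a1 to 2.35 for Slc4a1. Of the members 0 were called, where 2.23% of all tested genes were called. The DM libraries are those of the contrast that chose the members, so these values are not independent of that choice. Aqp1 had a ratio of 2.27 ± 0.94 and Cldn13 one of 2.28 ± 0.84 (SE). The median over the members was 2.05, against -0.25 over all tested genes, and it was 1.21 without DM replicate 3. Adjusted p was 0.135 to 0.538 in limma, 5 members had an unadjusted p below 0.05, as did 2372 of all genes, and for every member WT replicate 2 was above DM replicate 6. Of the 49 other red-cell genes 0 were called, and 1 without DM replicate 6, while 35 had ratios above 0 and the median was 0.68. Other markers were compared beside them. Neutrophil markers summed to 482 to 1571 TPM in DM and 64.7 to 1121 TPM in WT, which overlap, and their part was not tested. Within DM the neutrophil sum was lowest in replicate 3. The B-cell sum was 2298 to 3322 TPM in DM and 4041 to 5176 TPM in WT, and 7 of the 10 were lowest in DM replicate 3, the DM library with the highest level of every member.

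DM against Sf3b1 MT gave the members ratios of 0.27 for Hba-a1 to 2.29 for Car1, with a median of 1.31 against -0.11 over all tested genes. All 9 were above 0 and 0 were called, where 0.121% of all genes were called (adjusted p 0.368 to 0.972 in limma). Car1 alone had an unadjusted p below 0.05, as did 1096 of all genes. Here too the DM libraries are those of the contrast that chose the members, so these values depend on that choice. Sf3b1 MT replicate 2 was above DM replicate 1 for every member except Car1, and the median was 0.20 without Sf3b1 MT replicate 1 and 2.08 without replicate 2. Other markers differed beside them. The B-cell sum was 2298 to 3322 TPM in DM and 4202 to 5358 TPM in Sf3b1 MT, that of immature B cells 54.3 to 67.2 TPM in DM and 84.7 to 106 TPM in Sf3b1 MT, and that of platelets 13.2 to 15.9 TPM in DM and 26.2 to 41.6 TPM in Sf3b1 MT. Macrophage markers summed to 624 to 1149 TPM in DM and 376 to 473 TPM in Sf3b1 MT, natural killer markers to 25.5 to 47.0 TPM in DM and 15.6 to 18.1 TPM in Sf3b1 MT, and progenitor markers to 12.7 to 20.4 TPM in DM and 10.1 to 11.2 TPM in Sf3b1 MT. These 6 sums did not overlap between the groups, and their part was not tested. Lyz2 made up much of the macrophage sum, at 373 to 1005 TPM in DM and 171 to 285 TPM in Sf3b1 MT. C1qa (16.9 to 35.8 TPM in DM and 18.8 to 35.9 TPM in Sf3b1 MT), C1qb, Vcam1 and Slc40a1 overlapped between the groups. Vpreb3, at 11.2 to 104 TPM over all libraries, was the only immature B-cell marker above 7.30 TPM. Of the 49 other red-cell genes 0 were called, with a median of 0.34.

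The log2 ratios of Sf3b1 MT against WT use no library of the contrast that chose the members. Their p-values do, since the spread was fitted over 15 libraries that include DM and Atm MT. Here 0 members were called, where 0.0707% of all tested genes were, and adjusted p was 0.650 to 0.978 in limma. Of the 9 ratios 8 were above 0, from 0.54 for Car2 to 1.48 for Slc4a1, Car1 was at -0.25, and the median was 0.97 against -0.11 over all genes. Of the members 0 had an unadjusted p below 0.05, as did 1047 of all genes. Sf3b1 MT replicate 1 lay below every WT library for 7 members while replicate 2 lay above every WT library for 8 of them, and the median was 2.01 without replicate 1 and 0.11 without replicate 2. Platelet markers summed to 26.2 to 41.6 TPM in Sf3b1 MT and 13.9 to 26.4 TPM in WT. Immature B-cell markers, mostly Vpreb3, summed to 84.7 to 106 TPM in Sf3b1 MT and 60.8 to 74.8 TPM in WT. Those of natural killer cells summed to 15.6 to 18.1 TPM in Sf3b1 MT and 18.5 to 26.7 TPM in WT. The part of all these markers was not tested. Of the 49 other red-cell genes 0 were called, with a median of 0.30.

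In Atm MT against WT the members divided by pattern. Car1 (-2.52 ± 0.81), Aqp1 (-2.37 ± 0.81), Cldn13 (-1.68 ± 0.73), Rhd (-1.67 ± 0.73), Car2 (-1.60 ± 0.81) and Slc4a1 (-0.97 ± 0.84) had log2 ratios below 0, whereas Hba-a1 (-0.05 ± 1.20), Hba-a2 (0.23 ± 1.25) and Alas2 (0.28 ± 0.76) were near 0 (SE). The call count was 0, where 0.647% of all tested genes were called, with adjusted p of 0.182 to 0.997 in limma. An unadjusted p below 0.05 was seen for 4 members and 1118 of all genes. The groups of 1 member, Aqp1, did not overlap, and 3.48% of all tested genes did not overlap downward. Hba-a1 had a ratio of 0.03 after median-ratio scaling, and without Atm MT replicates 1 to 4 Alas2 was at -0.70, Hba-a1 at -2.20 and Hba-a2 at -2.37, with a members' median of -1.63 against -1.60 in all libraries. Platelet markers summed to 1.35 to 10.7 TPM in Atm MT and 13.9 to 26.4 TPM in WT, and their part was not tested. Of the 49 other red-cell genes 0 were called and 10 had ratios above 0 (median -0.25). This comparison shares Atm MT with one above and WT with others, so their values are not independent. Its Atm MT libraries are also those of the contrast that chose the members.

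The DM-CLL libraries lay far from each other for every member. Car1 was 22.7-fold, Slc4a1 280-fold and Hba-a2 1050-fold higher in replicate 4 than in replicate 5. Against DM the members' ratios ran from -1.57 for Aqp1 to 1.10 for Alas2, with 3 above 0 (Alas2 and both alpha-globins), a median of -0.99 against 0.43 over all tested genes, and 0 called, where 31.2% of all genes were called (adjusted p 0.330 to 0.797 in limma). Against WT all 9 ratios were above 0, from 0.53 for Car2 to 2.60 for Alas2, with a median of 1.09 against 0.19, and 0 were called, where 13.1% were (adjusted p 0.296 to 0.834). In each comparison 0 members had an unadjusted p below 0.05, as did 4292 and 2659 of all genes. These values rest on which library is kept, and those against DM use the DM libraries of the contrast that chose the members. Without replicate 5 the ratios of Alas2, Hba-a1 and Hba-a2 were 4.84, 5.65 and 5.92 against DM. Against WT they were 6.34, 7.04 and 7.53, and that of Slc4a1 was 5.11. Without replicate 4 Cldn13 was at -4.06 against DM, and all 9 members were below 0 against both DM and WT. Each of these fits leaves a lone DM-CLL library, assumed to vary like the other groups, so no calls are read from them. The T-cell markers noted above for replicate 4 summed to 11.6 TPM in replicate 5. Immature B-cell markers, mostly Vpreb3, summed to 13.5 to 19.4 TPM in DM-CLL, 54.3 to 67.2 TPM in DM and 60.8 to 74.8 TPM in WT. The part of these markers was not tested.

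Of the 49 other red-cell genes, 4 rose in DM-CLL against DM, where 29.2% of all tested genes were called higher, and 4 rose in DM-CLL against WT, where 10.3% were. Cat rose by 1.20 ± 0.19 against DM (adjusted p = 2.99e-04 in limma) and by 0.90 ± 0.19 against WT (adjusted p = 0.00388). Tfrc, the transferrin receptor that takes up iron in dividing cells, measured 46.7 and 19.0 TPM in DM-CLL, against 10.1, 20.9 and 6.48 TPM in DM and 11.2, 14.5 and 6.74 TPM in WT (ratios 1.34 and 1.44). Bpgm, which makes the bisphosphoglycerate that lowers the oxygen affinity of haemoglobin, measured 92.1 and 11.6 TPM in DM-CLL, against 9.67, 10.6 and 9.53 TPM in DM (1.65). Its high value thus lay in replicate 4 alone. The others were Xpo7 against DM (1.05), and Alad (1.16) and Tmod1 (1.23) against WT. Median-ratio scaling moves the median of all genes in DM-CLL against DM from 0.43 to -0.03, and Cat (0.68) was then the 1 of these 4 still called higher. It was likewise the 1 of 4 against WT (0.71). Without DM-CLL replicate 4 the calls of Bpgm, Tfrc, Xpo7, Alad and Tmod1, and that of Cat against WT, were lost. Without replicate 5 more of the other red-cell genes were called higher against both DM and WT. That fit too leaves a lone DM-CLL library, so no count is read from it. Without WT replicate 1, 2 or 3 the count against WT was 1, 2 and 1.

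By mean level DM or DM-CLL stood first for each of the 9 members. Atm MT stood last for Car1, Car2, Aqp1, Cldn13, Rhd and Slc4a1, and WT stood last for Alas2, Hba-a1 and Hba-a2. Of 36 pairs of neighbouring groups in these orders 35 overlapped. The exception was Aqp1 between Atm MT (1.69 ± 1.69 TPM, SD, n = 6) and WT (13.4 ± 11.2 TPM, SD, n = 3). Ranked by the members' mean log2 level, DM-CLL replicate 4 (8.45), DM replicate 3 (7.27) and Sf3b1 MT replicate 2 (6.04) were highest, and DM-CLL replicate 5 (2.01), Atm MT replicate 1 (1.47) and Atm MT replicate 6 (1.34) lowest.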

How the data were processed

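B cells of 17 libraries in 5 groups were measured by poly(A) RNA sequencing, with RNA from the PrepEase kit and NEBNext Ultra libraries, per the labels' protocols. The authors deposited TPM per gene symbol in 1 table, made with STAR and build mm10 per the submitters' processing notes. The quantifier, annotation, filters and versions are not given in the sources used here. Listed TPM sum to 43.1% to 59.7% of the full TPM scale per library, so values were scaled over features the table does not list, and a large transcript pool in 1 library lowers the others' values. Depth is unknown, so no counting interval or floor was computed, and the precision rests on the spread between libraries.

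Groups came from the genotype labels. Genes with at least 1 TPM in at least 2 libraries were fitted as log2(TPM + 1) with limma 3.58.1 in R 4.3.3 (eBayes with trend, 2-sided, Benjamini-Hochberg over 9898 genes, threshold 0.05). Comparisons without DM-CLL used 15 libraries and those with it all 17. The members and all lists were chosen with earlier results of these data known. Genes named besides the members were the 3 of each erythroid list with the highest mean, list genes that passed, and the 10 most alike by Pearson's r, and the text gives a selection of these, some genes not being reported here. Single marker genes shown as examples were picked after their values were seen. Gene positions came from GENCODE M21 (GRCm38) and promoters from RefSeq (GRCm38.p6). Alternatives were a pseudocount of 0.1, no filter, median-ratio scaling over 7769 genes, removal of 7 haemoglobin and immunoglobulin genes, a fit of the groups compared alone, the replicate number as a block, leaving out each library, and, added after the data were seen, leaving out Atm MT replicates 1 to 4. Tables were made in Python 3.11.15 (pandas 2.3.3).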

Additional observations from a re-analysis of the deposited data

Results flagged for a closer look

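Among the 6 Atm MT libraries, replicate 3 stood far above the next for 4 of 11 values examined (the 9 members and 2 sums), by Dixon's test at the 95% level. Alas2 was at 13.78 TPM there and at 3.58 TPM in the next library. Slc4a1 was at 6.49 TPM, with the next library at 2.36 TPM. Hba-a1 was at 544.59 TPM, with the next at 166.09 TPM, and Hba-a2 at 1959.31 TPM, with the next at 676.4 TPM. Chance gives such a mark in about 1 in 20 groups only if values are normally distributed. The marks were made on TPM and not on log2 values. These TPM spread unevenly, with Hba-a1 from 5.18 to 544.59 TPM around a median of 55.3 TPM, so the rate is not known here. The genes also vary together, so the 4 marks are not separate events. The cause was not tested. Without replicate 3 the log2 ratio of Atm MT to WT was -0.20 for Alas2, -0.72 for Hba-a1 and -0.47 for Hba-a2.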

How the results depend on the processing

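Of 382 log2 ratios of single members recomputed under settings other than leaving out 1 library, 358 kept their direction and their side of the threshold. The count of members called in DM against Atm MT was 0, against 6, without Atm MT replicates 1 to 4, a choice made after the data were seen that leaves 2 Atm MT libraries. It was 4 without a filter, without haemoglobin and immunoglobulin genes and with only those groups fitted, where Car2 and Slc4a1 lost their calls (adjusted p 0.0534 to 0.0739 in limma) and 168, 69 and 57 of all genes were called, against 599. With the replicate number as a block, 7 members were called in DM against WT, against 0 without it. Of all tested genes 1131 were then called, against 221. The labels do not say that same-numbered libraries are paired. Deviations of the 18 same-numbered pairs had r of -0.36 to 0.36, with 5 above 0.1. These cannot decide it, since deviations from the mean of so few libraries are tied to each other. The 7 calls thus rest on shared numbers and not on the design, and their DM libraries are those of the contrast that chose the members. In the DM-CLL comparisons, whose numbers are shared with Atm MT alone, the block called 0 members, with medians of -1.51 against DM and 1.32 against WT, and 1247 and 755 of all genes, against 3084 and 1299. Of the 1131 genes the block called in DM against WT, 11 were other red-cell genes, against 0 of 221 without it. Atm MT against WT gave Hba-a1 a log2 ratio of 1.02 with the block and 0.026 after median-ratio scaling, against -0.05, and without Atm MT replicates 1 to 4 Alas2 was at -0.697 and Hba-a2 at -2.37. With a pseudocount of 0.1 Alas2 was at -0.049 in DM-CLL against DM, against 1.10. Scaling moved the median ratio of all genes from -0.21 to 0.01 in DM against Atm MT and from -0.25 to 0.03 in DM against WT, and calls that were higher made up 71.2% and 55.6% after it, against 25.4% and 6.79% before. In DM-CLL against DM they made up 53.8% after it, against 93.7%, and in DM-CLL against WT 56.8%, against 78.6%. Without haemoglobin and immunoglobulin genes the alpha-globins have no value. Other red-cell genes called higher in DM against Atm MT numbered 2 without a filter, 2 without haemoglobin and immunoglobulin genes and 8 with only those groups fitted, against 19. In DM-CLL against DM they numbered 2 without haemoglobin and immunoglobulin genes, 1 with only those groups fitted and 1 with the block, against 4, and in DM-CLL against WT 1, 0 and 0, and 1 without a filter, against 4. The cause of these shifts was not tested.

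Leaving out 1 library at a time, 0 to 6 members were called in DM against Atm MT, 0 to 3 in DM-CLL against DM, 0 to 4 in DM-CLL against WT and 0 in each other comparison. The members' median ran from 2.78 to 4.14 in DM against Atm MT, 0.20 to 2.08 in DM against Sf3b1 MT, 1.21 to 2.66 in DM against WT, 0.11 to 2.01 in Sf3b1 MT against WT, -2.08 to -1.05 in Atm MT against WT, -3.87 to 1.62 in DM-CLL against DM and -1.74 to 3.70 in DM-CLL against WT. Members whose sign turned ran, in DM against Sf3b1 MT, from -0.33 to 1.63 for Slc4a1, -0.45 to 1.02 for Alas2, -0.92 to 1.23 for Hba-a1 and -0.66 to 1.15 for Hba-a2. In Sf3b1 MT against WT they ran from -0.93 to 0.78 for Car1 and -0.17 to 1.49 for Car2, and in Atm MT against WT from -0.20 to 0.58 for Alas2, -0.72 to 0.57 for Hba-a1 and -0.47 to 1.03 for Hba-a2. In DM-CLL against DM all 9 turned, from -3.21 to 1.15 for Car1, -3.92 to 1.04 for Car2, -4.01 to 0.86 for Aqp1, -4.06 to 0.92 for Cldn13, -3.61 to 1.62 for Rhd, -3.87 to 2.76 for Slc4a1, -2.63 to 4.84 for Alas2, -3.80 to 5.65 for Hba-a1 and -4.06 to 5.92 for Hba-a2. In DM-CLL against WT all 9 turned, from -1.17 to 3.19 for Car1, -1.95 to 3.02 for Car2, -1.74 to 3.13 for Aqp1, -1.78 to 3.21 for Cldn13, -1.53 to 3.70 for Rhd, -1.52 to 5.11 for Slc4a1, -1.14 to 6.34 for Alas2, -2.41 to 7.04 for Hba-a1 and -2.45 to 7.53 for Hba-a2. In both, the lowest value came without DM-CLL replicate 4 and the highest without replicate 5. Unknown depth limits the low values, such as Alas2 in DM-CLL replicate 5.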
